A study of Mus musculus with 12 samples.

Results

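The genes described here encode the subunits, assembly factors and regulators of the proteasome. They are the protein-coding genes whose GENCODE M21 mouse symbol begins with Psma, Psmb, Psmc, Psmd, Psme, Psmf or Psmg followed by a digit, without Psmb8 and Psmb9. The rule took 48 of the 48672 gene IDs in the count files. Psmc3ip entered by its name only, since it encodes a partner of a meiotic recombination protein and not a proteasome subunit. Of the 48 genes, 47 had enough counts to be tested.

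The study sequenced RNA of thymic iNKT cells (invariant natural killer T cells), innate-like T cells that recognise lipids. The cells were sorted from C57Bl/6J mice aged 4 to 5 weeks that had received no treatment. The 12 libraries form 4 groups of 3: WT stage 0 (ST0), WT stage 1 (ST1), Bcl6KO ST0 and Bcl6KO ST1. Bcl6KO cells came from CDCre;Bcl6F/F mice, written as the labels spell it, in which floxed alleles of the transcriptional repressor gene Bcl6 meet a Cre transgene. The gate for ST0 took tetramer-binding, TCRb-positive cells with CD24 and without CD44, and that for ST1 took such cells lacking both. Both genotypes were pools of the thymi of 4 to 7 mice, and WT is given with no further allele. Whether each library of a group had a pool of its own is not stated in the labels. The p-values therefore rest on library-to-library spread alone, which may be technical.

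The proteasome is the main protease of the cytosol and nucleus for proteins tagged with ubiquitin. Its 20S core is a barrel of alpha rings, which gate the entrance, around beta rings, which hold the protein-cutting sites. The 19S particle caps the barrel: ATPases at its base unfold the substrate and pull it in, and the lid removes the ubiquitin. Other caps, such as the PA28 activators, open the gate without ubiquitin. Immune cells exchange some catalytic beta subunits for special ones, and the peptides that result are shown on MHC class I molecules, which thymocytes meet during their selection.

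Library totals ran from 4129919 to 8038717 counts, and 14860 to 22028 genes were detected per library. The targeted gene Bcl6 stood at 373, 217 and 275 CPM in WT ST0 and 8.77, 4.15 and 8.61 CPM in WT ST1, and at 511, 657 and 652 CPM and 14.7, 56.0 and 25.2 CPM in the libraries labelled Bcl6KO ST0 and ST1. The counts cover the whole gene and not the deleted part alone, so they do not check the deletion, and Bcl6KO is used here as the label. Sp100, a nuclear body gene, took 10.8% to 23.9% of the counts in the Bcl6KO ST0 libraries, against 0.0283% to 5.03% in the other 9. The 7 markers of T and iNKT cells were detected in each group, with summed levels of 3212 to 6039 CPM, a count relative to the TMM-scaled library total. The gate marker Cd24a stood at 149 to 313 CPM in the ST0 libraries and 0.790 to 13.7 CPM in the ST1 libraries, while Cd44 overlapped between stages in WT and not in Bcl6KO. The 6 markers of double-positive thymocytes summed to 316 to 1318 CPM in WT ST0 and 652 to 846 CPM in Bcl6KO ST0. In ST1, where WT had 5 of the 6 above 0, they summed to 8.0 to 13.7 CPM in WT ST1 and 24.4 to 63.4 CPM in Bcl6KO ST1. Every stage comparison below thus sets groups side by side that also differ in these markers, and the part of such cells in a result was not tested. In bulk samples, fewer cells of a type and less RNA per cell cannot be told apart.

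Taken as a whole, the proteasome genes held a narrow share of the RNA. They took 0.175% to 0.293% of a library's counts. Their summed level was 2211 ± 110 CPM in WT ST0, 2352 ± 240 CPM in WT ST1, 2663 ± 312 CPM in Bcl6KO ST0 and 2291 ± 113 CPM in Bcl6KO ST1 (SD, n = 3 each). The 3 Bcl6KO ST0 libraries, at 2337 to 2959 CPM, were all above the WT ST0 libraries, at 2088 to 2301 CPM. Between stages the libraries overlapped in both genotypes. Without Sp100 in the total, the share of counts was 0.213% to 0.270% in WT ST0 and 0.213% to 0.272% in Bcl6KO ST0, so that by this measure those groups overlapped.

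**Figure D1:**
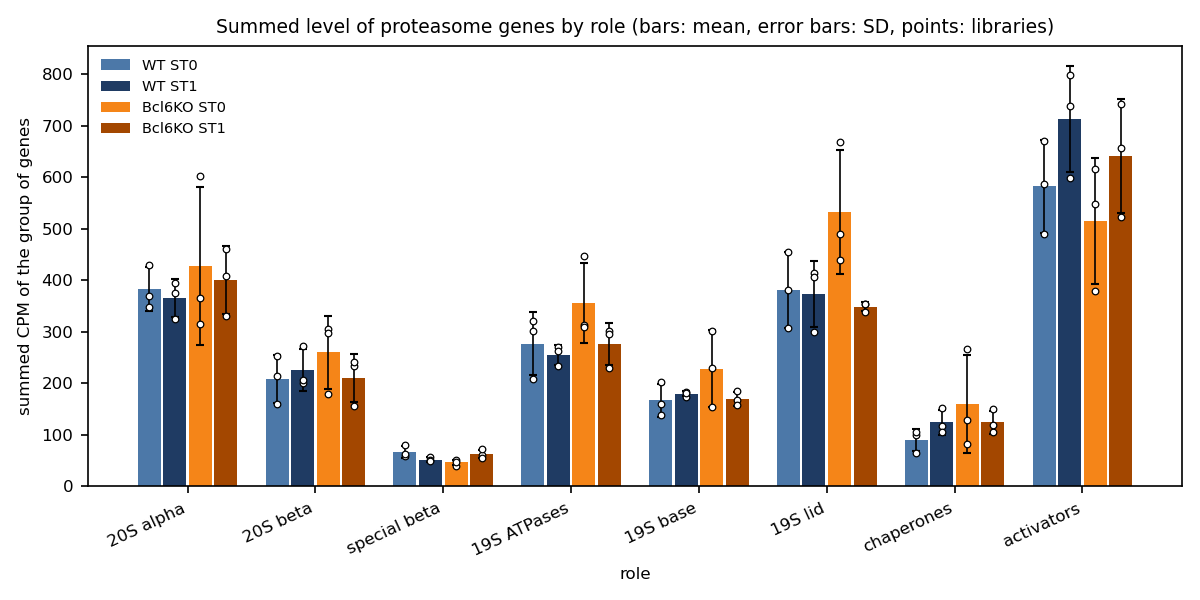
Summed level in CPM (vertical axis, from 0) of the proteasome genes by role (horizontal axis) in the 4 groups. Bars are means, error bars SD and points the 3 libraries of each group. The activators carry the highest mean sum in 3 groups and the 19S lid does in Bcl6KO ST0, at 533 against 515 CPM. The Bcl6KO ST0 libraries run from 440 to 668 CPM for the lid and from 315 to 602 CPM for the 20S alpha ring.

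The test compared groups gene by gene, with edgeR's quasi-likelihood test and Benjamini-Hochberg adjustment over all 15704 genes tested, at an adjusted p of 0.05. Between stages in Bcl6KO cells 1 of the 47 tested proteasome genes passed, Psmd5, which rose. The share that passed among all genes was 0.675%. In the stage effect averaged over both genotypes 2 passed, Psmd5 and Psme2b, and both rose, against 3.46% of all genes. In WT cells no proteasome gene passed between stages, where 0.433% of all genes did. None passed between the genotypes at ST0, where 0.0191% of all genes did, or at ST1, where 0% did. The genotype effect averaged over stages gave 0 proteasome genes and 0.00637% of all genes, and its change from ST0 to ST1 gave 0 and 0%.

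Counted without adjustment, the share of proteasome genes lay below that of all genes in each comparison. At an unadjusted p under 0.05 in edgeR's test, 1 of 47 proteasome genes differed between stages in WT, against 8.40% of all genes, and 5 in Bcl6KO, against 16.4%. Between genotypes it was 3 at ST0, against 14.7% of all genes, and 0 at ST1, against 2.57%. The averaged stage effect gave 4 proteasome genes, against 18.3% of all genes, the averaged genotype effect 2, against 10.9%, and the difference of genotype effects 2, against 7.78%. DESeq2's Wald test called 1 proteasome gene (Psme2b) between stages in WT, beside 2.66% of all genes with an adjusted p, and 2 in Bcl6KO (Psmd5 and Psme2b), beside 8.54%. It called 2 between genotypes at ST0 (Psmd5 lower and Psmd7 higher), beside 6.45%, and 0 at ST1, beside 0.130%. In the averaged stage effect it called 2, beside 9.75%. It called Psmd5 alone in the averaged genotype effect, beside 3.06%, and in the difference of genotype effects, beside 0.848%. DESeq2 gave an adjusted p to 46 of the 47 proteasome genes in the WT stage comparison and to all 47 in the others.

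The 2 medians below that involve Bcl6KO ST0 changed sign under an alternative. Between stages in WT the median log2 fold change of the 47 genes was 0.22, with 28 above 0, beside a median of 0.00 over all genes tested. In Bcl6KO cells the stage median was -0.12, with 20 above 0, beside 0.01 over all genes. The genotype medians were -0.01 at ST0, with 23 above 0, and -0.04 at ST1, with 19 above 0, beside -0.01 and 0.02 over all genes. Without the first Bcl6KO ST0 library the stage median in Bcl6KO was 0.28 and the genotype median at ST0 was -0.44, and with the Sp100 share as a covariate they were -0.43 and 0.42. The median standard error of a single gene was 0.62 in the WT stage comparison and 0.63 in the Bcl6KO one. Differences of that size could not be resolved for one gene, and some well above it also missed the adjusted threshold. An example is Psme2b between stages in WT, at 3.30 (SE 0.81, edgeR adjusted p = 0.133). The genotype comparisons share libraries with the stage comparisons.

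**Figure D2:**
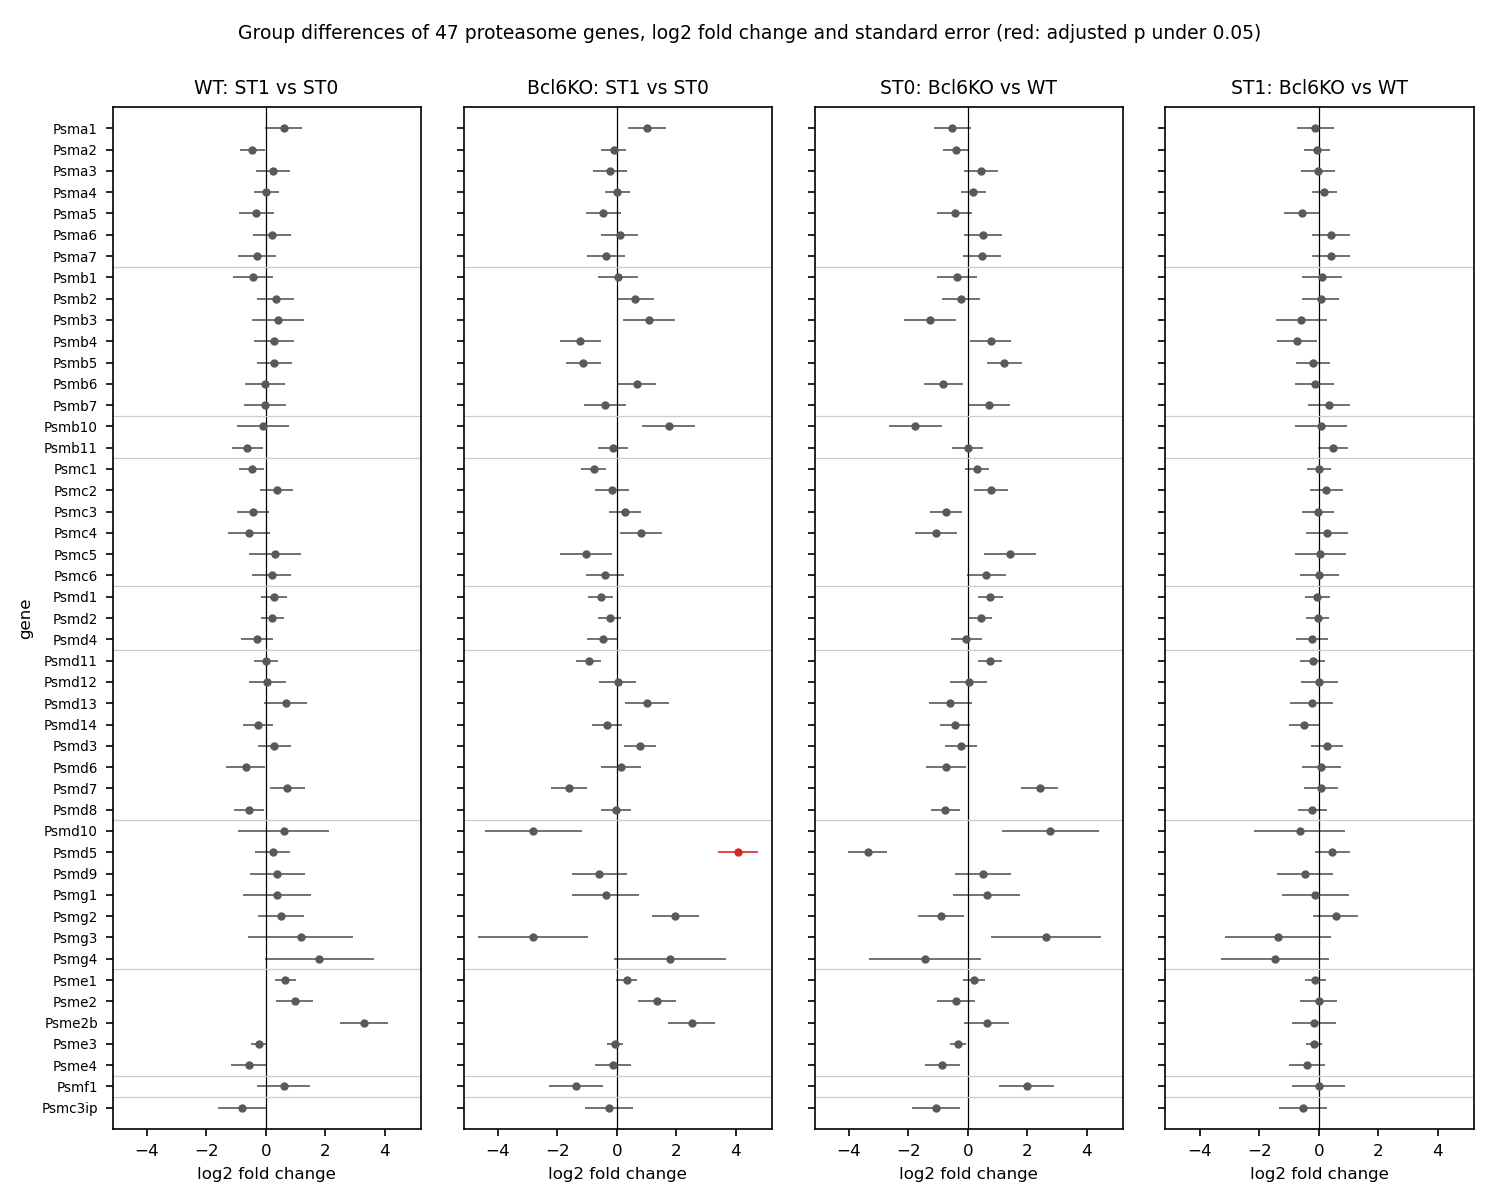
Log2 fold change (horizontal axis) with its standard error (line) for the 47 tested genes (vertical axis, grouped by role) in the 4 comparisons between groups, from edgeR's fit. Psmd5 in the Bcl6KO stage comparison, at 4.06, is the single point past the adjusted threshold, and the ST1 genotype panel shows the narrowest spread, from -1.47 to 0.56.

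Psmd5 encodes a chaperone, also known as S5b, that helps to assemble the 19S base and is absent from the finished particle. It lies on chromosome 2, 34849734 to 34874968, minus strand (GRCm38, GENCODE M21). The stretch around its RefSeq start site is printed because Psmd5 passed in more comparisons than any other proteasome gene. It runs from 250 bases before to 30 bases after the start (chr2:34870933-34871212, minus strand, GRCm38.p6), and the capitals mark a reverse palindrome of 10 bases that a script found there.
Psmd5: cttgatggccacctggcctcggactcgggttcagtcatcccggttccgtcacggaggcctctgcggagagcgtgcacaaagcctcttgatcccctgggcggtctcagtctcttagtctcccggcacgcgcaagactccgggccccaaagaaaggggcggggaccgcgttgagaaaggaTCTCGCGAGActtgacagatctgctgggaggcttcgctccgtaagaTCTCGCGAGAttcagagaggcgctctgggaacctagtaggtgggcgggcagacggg
The palindrome TCTCGCGAGA stands there in 2 copies, beginning 72 and 26 bases before the start. It was looked for after the sequence had been seen. Of the 32851 RefSeq promoter windows of 300 bases, 153 (0.466%) hold it at least once and 11 (0.0335%) hold 2 or more copies. Among the 21263 windows of coding genes, 143 (0.6725%) hold it and 0.047% hold 2 or more copies. Of the 43 windows of proteasome genes, that of Psmd5 alone holds it.

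In the libraries, Psmd5 stood at 13.5, 30.7 and 39.4 CPM in WT ST0 and at 39.1, 28.2 and 31.2 CPM in WT ST1. In Bcl6KO ST0 it stood at 2.0, 2.09 and 3.94 CPM, and in Bcl6KO ST1 at 47.3, 46.1 and 41.3 CPM. The 3 Bcl6KO ST0 libraries were the lowest of the 12, with 41 counts between them and at least 10 in each, above the limit of 3 counts that a count of 0 allows. The 3 Bcl6KO ST1 libraries were the highest of the 12, while the WT stages overlapped.

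Between stages in Bcl6KO cells Psmd5 rose by a log2 fold change of 4.06 (SE 0.67). Its adjusted p was 0.0218 in edgeR's quasi-likelihood test with Benjamini-Hochberg adjustment. In WT the change was 0.24. Leaving out the Bcl6KO ST1 libraries 1, 2 and 3 in turn, the log2 fold change was 4.04, 4.05 and 4.12 and the edgeR adjusted p 0.0651, 0.0630 and 0.0667. The calls over all genes fell from 106 to 8, 24 and 7 in the same fits. In a fit of the 2 Bcl6KO groups alone Psmd5 had a value of 4.04 (edgeR adjusted p = 0.182), with 3 calls over all genes. With the Sp100 share as a covariate it had 3.94 (edgeR adjusted p = 0.355), with 0 calls over all genes.

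Between genotypes at ST0 the value for Psmd5 was -3.37 (SE 0.65, edgeR adjusted p = 0.10), which missed the threshold, while DESeq2 gave -3.36 with an adjusted p of 1.07e-06. At ST1 it was 0.45 (edgeR adjusted p = 1). The difference between these genotype effects was 3.82 (SE 0.87, edgeR adjusted p = 0.483, DESeq2 adjusted p = 4.42e-04). The averaged stage effect of Psmd5 was 2.15 (SE 0.44, edgeR adjusted p = 0.0186). It missed the threshold without WT ST1 library 1 or library 3 (edgeR adjusted p = 0.0639 and 0.0514), without the first Bcl6KO ST1 library (0.0531) and with the Sp100 covariate (0.403). Over all genes the averaged stage effect had 544 calls, which became 193, 228 and 268 without those libraries and 16 with the covariate. Sp100, at 10.8% to 23.9% of counts, was highest in the same 3 libraries in which Psmd5 was lowest. The covariate thus largely follows membership of the Bcl6KO ST0 group, and such a fit cannot tell covariate and group apart. The part of Sp100 in the result was not tested.

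**Figure D3:**
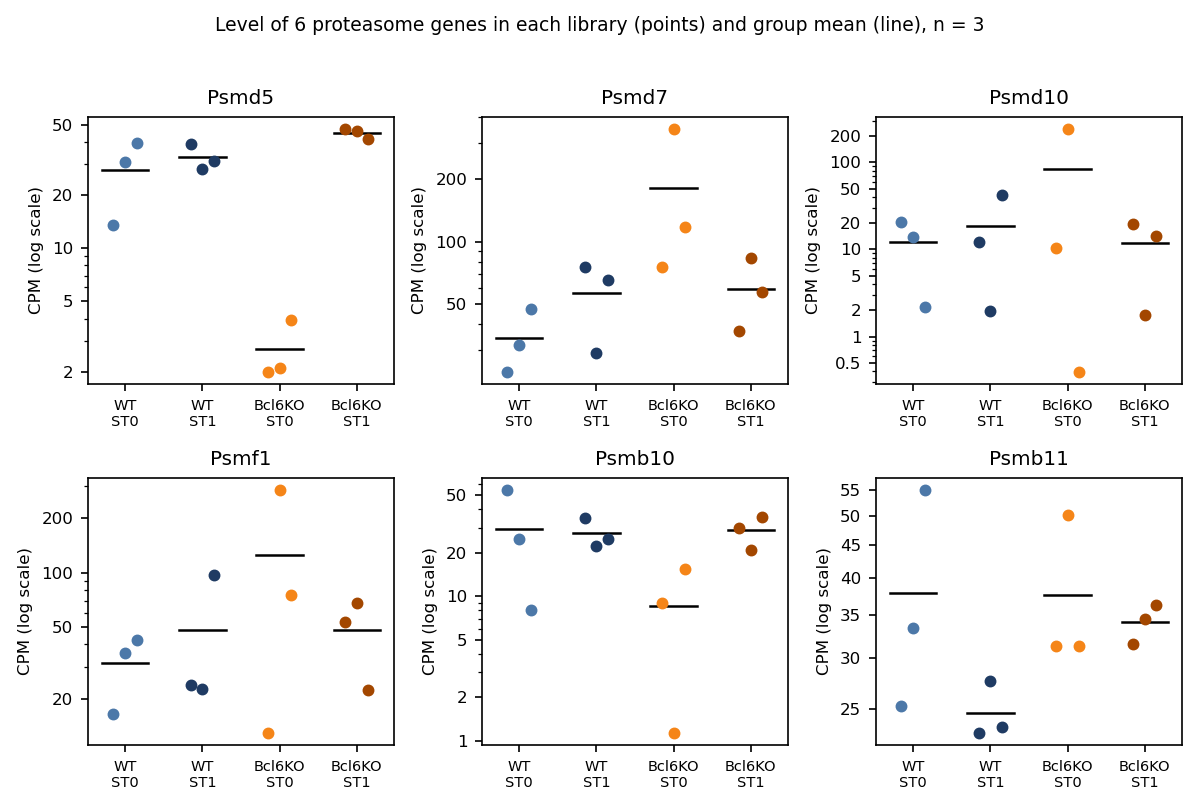
Level in CPM (vertical axis, log scale) of Psmd5, Psmd7, Psmd10, Psmf1, Psmb10 and Psmb11 in each library (points) by group (horizontal axis), with group means as lines, n = 3. The 3 Bcl6KO ST0 points of Psmd5 lie together at 2.0 to 3.94 CPM, whereas those of Psmd10 run from 0.394 to 242 CPM.

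Of the other assembly chaperones, Psmd10 (gankyrin) and Psmd9 also serve the 19S base, and Psmg1 to Psmg4 build the rings of the core. None passed a comparison. Psmd10 had the highest level per kilobase of the chaperones, 21.6 CPM per kb of exon over the 12 libraries, but 1 library made that level. In Bcl6KO ST0 it stood at 10.4, 242 and 0.394 CPM, and its range in the other 9 libraries was 1.79 to 42.0 CPM. Its difference between genotypes at ST0 was 2.77 with an SE of 1.63 (edgeR adjusted p = 0.455). Psmg2, singled out after its values were seen, stood at 11.4, 14.0 and 1.38 CPM in Bcl6KO ST0 and at 32.4, 40.5 and 31.1 CPM in Bcl6KO ST1. These libraries did not overlap, but the change of 1.95 (SE 0.79) did not pass (edgeR adjusted p = 0.232). Among all genes tested, the Bcl6KO ST1 libraries were higher without overlap for 11.8% and lower without overlap for 5.76%. Psmg3 and Psmg4, also singled out after their values were seen, were at 0 in 2 and 4 libraries and stayed below 12 CPM in all but 1 library, a Bcl6KO ST0 library with 66.9 CPM of Psmg3.

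Among the activators Psme2b alone passed. Psme1 and Psme2 encode the alpha and beta subunits of PA28, a cap induced by interferon gamma, Psme3 the nuclear PA28 gamma, and Psme4 the large activator PA200. Psme2b is a retrogene, a copy of Psme2 made through RNA and inserted on another chromosome. Of its distinct 50-base exon windows, 541 of 788 (68.7%) are found in Psme2 as well, and 28.3% of those of Psme2 are shared with another gene. No source used here says how reads that fit both were counted, and the levels of the pair are uncertain.

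Psme2b lies on chromosome 11, 48945354 to 48946190, minus strand, as 1 exon, and 4.90% of its exonic bases overlap 9930111J21Rik1 on the same strand. It also lies within the span of Gm12185. The whole RefSeq promoter window of Psme2b (300 of 300 bases) falls inside an untranslated region of 9930111J21Rik1 in GENCODE M21, on the same strand.

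Psme2b stood at 3.58, 7.09 and 3.94 CPM in WT ST0 and at 52.8, 31.8 and 60.1 CPM in WT ST1. In Bcl6KO ST0 it stood at 10.8, 1.71 and 10.2 CPM and in Bcl6KO ST1 at 19.5, 64.6 and 45.9 CPM. All 6 ST1 libraries were above all 6 ST0 libraries, the single proteasome gene of which this held. Among all genes tested it held upward for 1.89%.

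The averaged stage effect of Psme2b was 2.91 (SE 0.56), with an adjusted p of 0.0159 in edgeR's quasi-likelihood test after Benjamini-Hochberg adjustment. Within WT it was 3.30 (SE 0.81, edgeR adjusted p = 0.133) and within Bcl6KO 2.51 (SE 0.78, adjusted p = 0.139), and the difference between them, -0.79 (SE 1.05), did not pass (edgeR adjusted p = 0.934). The averaged effect missed the threshold without the first WT ST1 library (adjusted p = 0.0502) and, at 1.78, with the Sp100 share as a covariate (0.528). In WT it passed without the second Bcl6KO ST0 library (3.29, adjusted p = 0.0360) and in a fit of the WT groups alone (3.27, adjusted p = 0.0441).

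The genes around Psme2b had higher values at ST1 as well. They were chosen after their values were seen. The overlapping 9930111J21Rik1 had means of 24.8 ± 34.7 and 237 ± 45.7 CPM in WT ST0 and ST1, and of 9.79 ± 6.10 and 159 ± 39.2 CPM in Bcl6KO (SD, n = 3 each). Its averaged stage effect was 3.64 (edgeR adjusted p = 0.00872). Gm12185, whose span holds Psme2b, rose by 2.12 (edgeR adjusted p = 0.0419). Tgtp1, a neighbouring interferon-inducible GTPase gene, had a value of 2.73 that did not pass (edgeR adjusted p = 0.127). The part of reads from these genes in the Psme2b count was not tested.

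**Figure D4:**
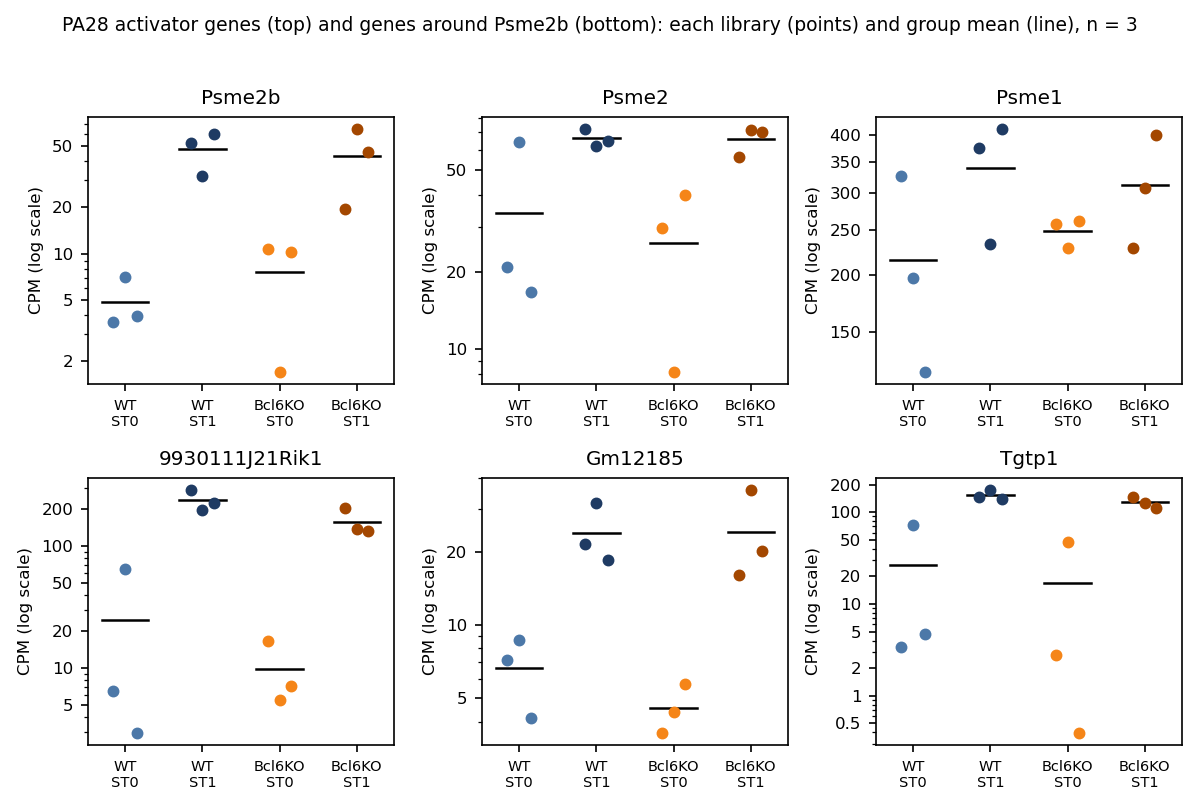
Level in CPM (vertical axis, log scale) of the PA28 genes Psme2b, Psme2 and Psme1 (top) and of 3 genes around Psme2b (bottom) in each library (points) by group (horizontal axis), with group means as lines, n = 3. For Psme2b, 9930111J21Rik1, Gm12185 and Tgtp1 every ST1 point lies above every ST0 point, whereas for Psme2 and Psme1 the stages overlap.

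The parent gene Psme2 (chromosome 14, 55587441 to 55591113, minus strand) stood at 20.9, 64.4 and 16.7 CPM in WT ST0 and 72.1, 62.2 and 64.8 CPM in WT ST1. In Bcl6KO it stood at 29.7, 8.15 and 39.8 CPM at ST0 and 56.0, 71.7 and 70.5 CPM at ST1. The 6 ST1 libraries held within 56.0 to 72.1 CPM, and 1 WT ST0 library reached into that range. The averaged stage effect of 1.16 (SE 0.45) did not pass (edgeR adjusted p = 0.186).

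Psme1 had the highest level per kilobase of all 48 genes, 126 CPM per kb of exon over the 12 libraries, against a median of 14.5. Its levels were 326, 197 and 123 CPM in WT ST0, 375, 233 and 413 CPM in WT ST1, 258, 229 and 261 CPM in Bcl6KO ST0 and 228, 307 and 400 CPM in Bcl6KO ST1. The groups overlapped, and the averaged stage effect was 0.49 (SE 0.25, edgeR adjusted p = 0.329). Psme3, singled out after its values were seen, came next at 61.1 CPM per kb and varied little, from 126 to 224 CPM over the libraries. Psme4, singled out after its values were seen, stood at 116 ± 7.31 CPM in WT ST0 and 64.5 ± 63.5 CPM in Bcl6KO ST0.

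Psmf1 encodes PI31, a protein that inhibits the core in the test tube. It stood at 16.5, 35.8 and 42.5 CPM in WT ST0 and 13.0, 286 and 75.4 CPM in Bcl6KO ST0. The Bcl6KO ST0 libraries lay on both sides of the WT ones, and the difference of 1.98 (SE 0.92) did not pass (edgeR adjusted p = 0.340). At ST1 the means were 48.0 ± 42.8 CPM in WT and 47.9 ± 23.4 CPM in Bcl6KO.

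In the 20S alpha ring none of the 7 tested genes had an unadjusted p under 0.05 in any of the 7 comparisons. Psma4 was the highest per kilobase, 42.2 CPM per kb, with means of 93.4 ± 58.1, 94.0 ± 11.9, 106 ± 30.4 and 107 ± 3.03 CPM in WT ST0, WT ST1, Bcl6KO ST0 and Bcl6KO ST1. Psma1 came closest to a difference. It stood at 21.1, 21.7 and 20.9 CPM in WT ST0 and 46.2, 37.9 and 12.7 CPM in WT ST1, and at 19.4, 12.5 and 12.4 CPM and 38.1, 23.3 and 28.0 CPM in Bcl6KO ST0 and ST1. The WT stages overlapped. The Bcl6KO stages did not, with ST1 higher, which held for 11.8% of all genes tested. The averaged stage effect of Psma1 was 0.81 (SE 0.44, edgeR adjusted p = 0.366). Psma8, the alpha subunit of the testis proteasome, had 10 counts over all libraries and 0 in 8 of them, so that it was not tested. No higher level than 0.984 CPM was reached, and 3 counts correspond to 0.569 to 0.615 CPM in a library.

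The 20S beta ring likewise gave no unadjusted p under 0.05. Psmb5, the subunit with chymotrypsin-like activity, was highest per kilobase at 39.4 CPM per kb. It stood at 28.0, 33.7 and 14.2 CPM in WT ST0 and 27.4, 61.6 and 87.6 CPM in Bcl6KO ST0, with overlap. The genotype difference at ST0 was 1.22 (SE 0.59, edgeR adjusted p = 0.360). Of the 50-base windows of Psmb5, 54.1% are shared with other genes, among them its pseudogene Psmb5-ps, which had 30 counts over the 12 libraries. Psmb6 and Psmb7, with the other catalytic sites of the standard core and likewise chosen after their values were seen, had means of 18.5 to 32.9 and 42.4 to 71.2 CPM over the groups.

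Psmb10 encodes a catalytic subunit of the immunoproteasome, the form that replaces the standard sites in many immune cells. It stood at 54.5, 25 and 8.07 CPM in WT ST0 and 34.7, 22.5 and 24.8 CPM in WT ST1. In Bcl6KO it stood at 8.98, 1.14 and 15.6 CPM at ST0 and at 29.6, 21.1 and 35.3 CPM at ST1. The Bcl6KO stages did not overlap, with ST1 higher, which held for 11.8% of all genes tested. Neither the stage change of 1.74 (SE 0.89, edgeR adjusted p = 0.352) nor the genotype difference at ST0 of -1.77 (SE 0.89, adjusted p = 0.376) passed. The other immunoproteasome subunits, left out by the rule, stood higher per kilobase, with 47.8 CPM per kb for Psmb8 and 25.2 for Psmb9 against 13.7 for Psmb10. Psmb8 had means of 130 to 208 CPM and Psmb9 of 61.1 to 129 CPM over the groups. Neither passed in any of the 7 comparisons (lowest edgeR adjusted p = 0.356 and 0.500).

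Psmb11 encodes the catalytic subunit of the thymoproteasome, known for its restriction to epithelial cells of the thymic cortex. It was counted in each library, between 22.9 and 54.9 CPM, with means of 37.9 ± 15.3, 24.6 ± 2.60, 37.6 ± 10.9 and 34.2 ± 2.40 CPM in WT ST0, WT ST1, Bcl6KO ST0 and Bcl6KO ST1. No group difference passed (lowest edgeR adjusted p = 0.654). Of the 11 epithelial markers, 8 were above 0 in WT ST0 and 6 in each other group, with summed levels of 87.3 to 246 CPM. Krt8, Krt5 and Dll4 were at 0 in all 12 libraries, Prss16, a protease of the cortical epithelium, was at 0 in 10, and Foxn1, the master regulator of thymic epithelium, had 55 counts in all. Ccl25 and Krt14 stood at 38.5 to 131 and 15.4 to 73.3 CPM, and Ly75 at 13.0 to 61.2 CPM. Aire stood at 2.17 to 10.6 CPM. Epcam was at 0 in 5 libraries and reached 24.0 CPM, and Krt18 was at 0 in 11. The source of the Psmb11 counts was not tested.

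The 6 ATPases of the 19S base, which form the unfolding ring, also gave no unadjusted p under 0.05. Psmc5 was the highest per kilobase, 40.4 CPM per kb, with 18.4, 252 and 20.1 CPM in Bcl6KO ST0 and 17.1 to 74.3 CPM in the other 9 libraries. The library with 252 CPM raised that mean. In WT ST0 Psmc1 was higher than Psmc5, at 35.9 against 26.1 CPM per kb. In WT ST1 and Bcl6KO ST1 Psmc5 was the higher, at 32.4 against 25.8 and 33.5 against 26.0 CPM per kb. Psmc1 had the lowest p of the ring, at means of 69.3 ± 18 and 49.97 ± 8.01 CPM in WT ST0 and ST1 and 85.8 ± 14.9 and 50.2 ± 18.4 CPM in Bcl6KO. Its averaged stage effect was -0.62 (SE 0.30, edgeR adjusted p = 0.286). Among the non-ATPases of the base, Psmd1 and Psmd2 are the large scaffolds, and Psmd4 is a ubiquitin receptor. Psmd2 was among the steadiest genes, from 44.9 to 86.0 CPM over the 12 libraries, and Psmd1 ran from 44.5 to 142 CPM, with a genotype difference at ST0 of 0.76 (SE 0.43, edgeR adjusted p = 0.429).

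The lid holds Psmd7, the partner of the deubiquitinase Psmd14. Psmd7 stood at 23.5, 31.5 and 47.4 CPM in WT ST0 and 75.1, 351 and 118 CPM in Bcl6KO ST0, with no overlap. Among all genes tested, 4.67% were likewise higher in Bcl6KO ST0 without overlap. At ST1 Psmd7 stood at 75.5, 28.8 and 65.0 CPM in WT and 36.9, 83.7 and 57.3 CPM in Bcl6KO, which overlapped. The genotype difference at ST0 was 2.41 (SE 0.62, edgeR adjusted p = 0.144). It passed DESeq2's test (2.46, adjusted p = 0.00445) and, in edgeR, passed when no gene was filtered out for low counts (2.30, adjusted p = 0.0498). The difference of genotype effects was -2.34 (SE 0.84, edgeR adjusted p = 0.541). Psmd11, singled out after its values were seen, stood at 172 ± 27.5 CPM in Bcl6KO ST0 and 89.2 ± 19.1 CPM in Bcl6KO ST1, without overlap (-0.95, SE 0.41, edgeR adjusted p = 0.271). Among all genes tested, 5.76% were likewise lower in Bcl6KO ST1 without overlap.

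Psmc3ip, the gene matched by name alone, stood at 22.8 ± 6.08, 13.0 ± 8.71, 10.9 ± 5.96 and 9.02 ± 1.72 CPM in WT ST0, WT ST1, Bcl6KO ST0 and Bcl6KO ST1, and no difference passed (lowest edgeR adjusted p = 0.576).

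The libraries of Bcl6KO ST0 set many of the extremes. Its second library was the highest of the 12 for 7 of the 47 genes and the lowest for 12. The highest were Psma5, Psmb4, Psmc5, Psmd7, Psmd10, Psmd11 and Psmf1, and the lowest included Psmb10, Psmc4, Psme2, Psme2b and Psme4. The same library had the fewest genes detected, 14860, and the largest Sp100 share, 23.9%. With 1 CPM added to each level, 19 genes differed more than 4-fold between the highest and lowest of the 3 Bcl6KO ST0 libraries. The count was 7 in WT ST0, 4 in WT ST1 and 4 in Bcl6KO ST1. The median SD of log2 levels within a group, with the same addition, was 0.76 in Bcl6KO ST0 against 0.55, 0.37 and 0.38 in the others. How far the library make-up entered these values was not tested.

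**Figure D5:**
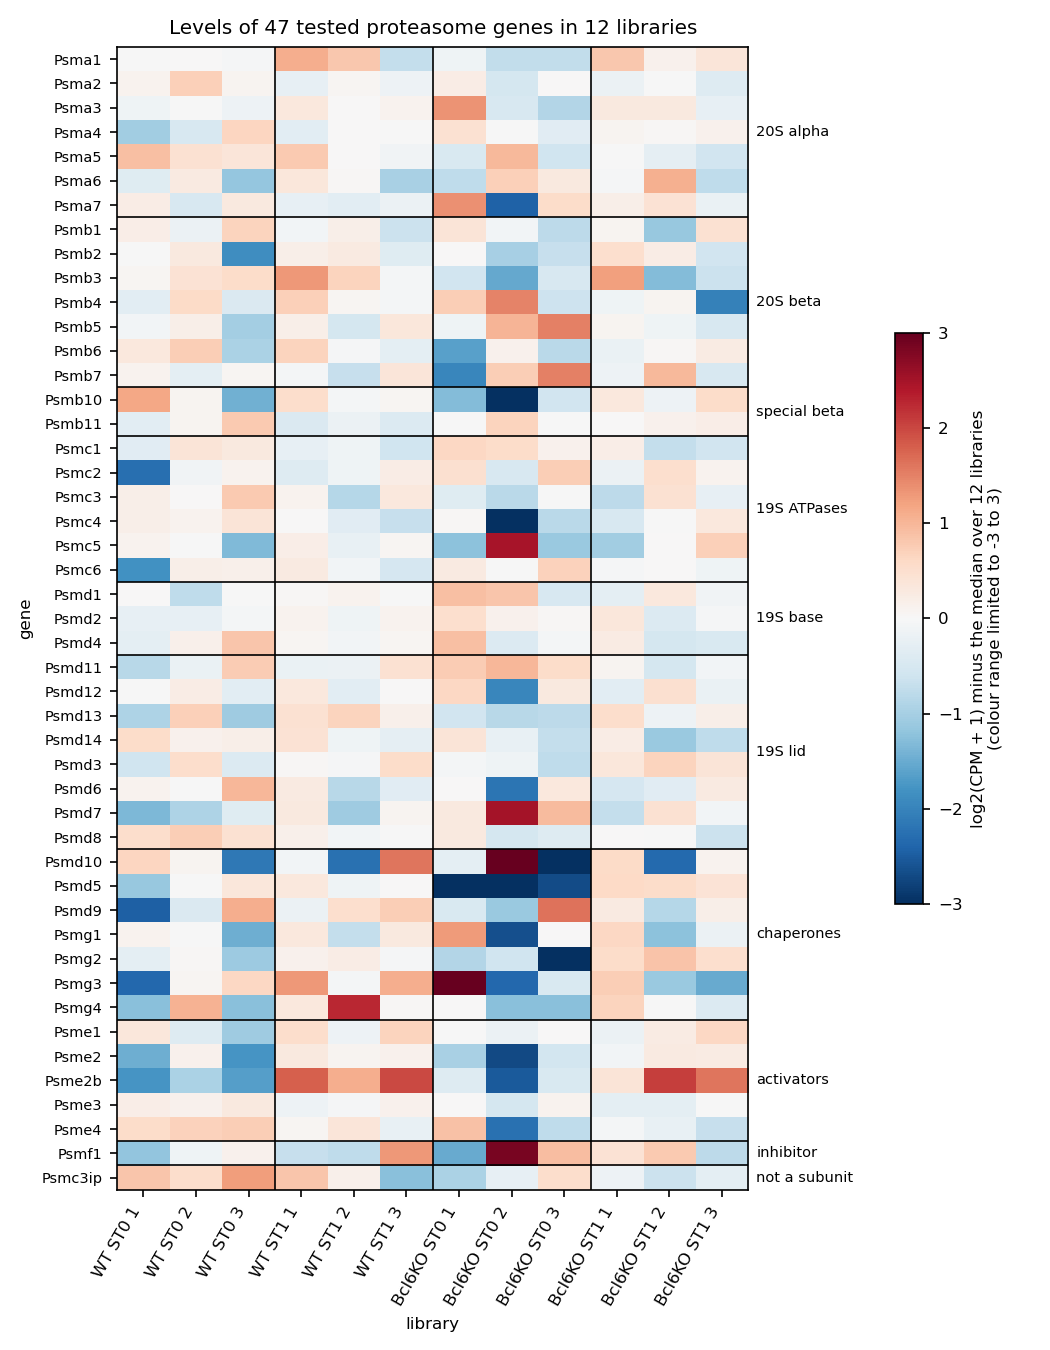
Log2(CPM + 1) of each of the 47 tested genes (rows, by role) in each of the 12 libraries (columns), as the difference from the gene's median over the libraries (colour, limited to -3 to 3). Psmd5 is low in the 3 Bcl6KO ST0 libraries together and Psme2b is high in the ST1 libraries, whereas most other strong colours sit in single libraries, above all the second of Bcl6KO ST0.

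Beside the proteasome genes, 32 other genes of the ubiquitin-proteasome pathway were taken from a list that holds ubiquitin genes, shuttle factors, the segregase Vcp and its cofactors, assembly and transcription factors, and Psmb8 and Psmb9. All 32 were tested and none passed in any of the 7 comparisons by edgeR's test. At an unadjusted p under 0.05 the counts were 1 and 4 between stages in WT and Bcl6KO, beside 8.40% and 16.4% of all genes. They were 7 and 0 between genotypes at ST0 and ST1, beside 14.7% and 2.57%. The 7, or 21.9% of the 32, were the one count above the share of all genes. The averaged stage and genotype effects gave 4 and 3, beside 18.3% and 10.9%, and the difference of genotype effects gave 2, beside 7.78%. Nfe2l1, the transcription factor that raises proteasome genes when the enzyme is inhibited, had means of 46.9 to 53.2 CPM in the 4 groups. Pomp, the maturation factor of the core, stood at 196 ± 112 and 105 ± 23.6 CPM in WT ST0 and ST1 and at 214 ± 89.5 and 131 ± 23.3 CPM in Bcl6KO. Its averaged stage effect was -0.81 (SE 0.30, edgeR adjusted p = 0.174).

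Promoter windows from RefSeq (GRCm38.p6, 250 bases before to 50 after the start) were found for 40 of the 48 genes, 43 windows in all. They were searched on both strands for 4 motifs. The ETS site CCGGAAG was in 16 of the 43 windows (37.2%), beside 11.6% of the 21263 windows of coding genes. The interferon motif GAAA-any 2 bases-GAAA was in 5 windows (11.6%), beside 3.35%, in Psmb3, Psmd4, Psmd9, Psme1 and Psmg4. The antioxidant response core TGACNNNGC was in 6 (14.0%), beside 13.0%, and the CCAAT box was in 14 (32.6%), beside 38.2%. The matches of 3 genes named above are shown with 10 bases on each side and the match in capitals, 1 for each of the first 3 motifs.
Psmd2: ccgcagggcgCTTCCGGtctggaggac
Psme1: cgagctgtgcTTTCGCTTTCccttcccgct
Psmb5: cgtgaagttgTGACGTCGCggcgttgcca
The ETS match of Psmd2 (chr16:20651616-20651642, plus strand) lies on the opposite strand and begins 26 bases before the start. The interferon match of Psme1 (chr14:55578493-55578522, plus strand) is also on the opposite strand and begins at base 10 after the start, and the match of Psmb5 (chr14:54618024-54618052, minus strand) begins 47 bases before it. Of the 40 genes, 12 held none of the 4 motifs, among them Psmd5, Psme2, Psme2b and Psmb10. A match is a stretch of letters and does not show that a factor binds.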

How the data were processed

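Counts of reads per gene were deposited by the authors for 12 libraries made with the NuGEN Ovation Ultralow kit, per the labels' protocols. The submitters' processing notes name bcl2fastq, TopHat2, Bowtie2 and DESeq and the build mm10. How genes were counted, by which annotation and with which strand setting, is not given in the sources used here. GENCODE M21 names were found for 48312 of 48672 gene IDs; the rest held 0.195% to 0.366% of a library's counts. Counts were tested with edgeR 4.0.16 (R 4.3.3, limma 3.58.1): TMM scaling, low-count filter by group, 1 mean per group, robust quasi-likelihood F-test with 8 residual degrees of freedom, two-sided, Benjamini-Hochberg adjustment over 15704 genes, threshold 0.05. DESeq2 1.42.0 was an alternative. The scripts were tested on simulated data. CPM uses TMM-scaled totals, and 3 counts (0.569 to 0.615 CPM) are taken as the limit that a count of 0 allows, for counting error only. A pseudocount of 1 CPM was used in the heat map, for the library medians and for the spread within groups. Every pair of replicates differed beyond sampling noise. Same-numbered libraries did not deviate together, so the numbers were not treated as pairs.

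The proteasome genes and lists were chosen with earlier results of these data known. Named are those that passed in any of 7 comparisons, the highest per kilobase and the lowest p of each role, Psmb10, Psmb11, Psma8, Psme1, Psme2 and Psmc3ip, and outside the set Psmb8, Psmb9, Nfe2l1, Pomp, Bcl6, Sp100 and the gate markers. Other genes given with values of their own were chosen after these were seen. Alternatives changed the scaling, the filter (none, or 10 counts in 6 libraries), the tool, the libraries in the fit, the Sp100 counts or a replicate block.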

Additional observations from a re-analysis of the deposited data

Results flagged for a closer look

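The genotype effect on Psmd5 differed between the stages by 1 of the 2 tools run. The log2 fold change of Bcl6KO against WT was -3.37 at ST0 and 0.45 at ST1, a difference of 3.82 (SE 0.87). DESeq2's Wald test passed it (adjusted p = 4.42e-04), and edgeR's quasi-likelihood test with Benjamini-Hochberg adjustment did not (adjusted p = 0.483). The Bcl6KO ST0 libraries were below the WT ST0 libraries in 3 of 3 cases, with 41 counts against 424 over the groups, and the Bcl6KO ST1 libraries were above the WT ST1 libraries in 3 of 3. Among all genes tested, 7.95% were lower in Bcl6KO without overlap at ST0 and 5.87% were higher without overlap at ST1.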

How the results depend on the processing

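Neither called proteasome gene, Psmd5 or Psme2b, changed direction in a comparison in which it had passed, under any alternative run. With DESeq2 the number of proteasome genes called was 1 between stages in WT, 2 in Bcl6KO, 2 between genotypes at ST0, and 1 each in the averaged genotype effect and the difference of genotype effects. With the Sp100 share as a covariate it was 0 in the Bcl6KO stage comparison and 0 in the averaged stage effect, where calls over all genes went from 106 to 0 and from 544 to 16. The median log2 fold changes were then -0.43 between stages in Bcl6KO, 0.42 between genotypes at ST0 and -0.50 for the difference of genotype effects. Since the Sp100 share largely follows membership of Bcl6KO ST0, this fit cannot tell covariate and group apart. Fits of the groups compared alone gave 1 call between stages in WT and 0 in Bcl6KO, with 96 and 3 over all genes; such a fit cannot be made for the 3 comparisons that use all 4 groups. Without a filter on low counts 1 gene was called between genotypes at ST0. Leaving out 1 library at a time gave 0 to 1 calls between stages in WT, 0 to 1 in Bcl6KO and 0 to 2 in the averaged stage effect. The medians then ran from -0.18 to 0.28 between stages in Bcl6KO, -0.44 to 0.19 between genotypes at ST0, -0.27 to 0.10 in the averaged genotype effect and -0.11 to 0.31 for the difference of genotype effects; in each of these 4 the far value came without the first Bcl6KO ST0 library. The causes were not tested. Over all genes, 68, 106, 3 and 0 calls in the stage comparisons of WT and Bcl6KO and the genotype comparisons at ST0 and ST1 became 376, 1309, 950 and 20 with DESeq2 and 142, 309, 103 and 11 without a filter. The averaged stage effect (544) became 1495 and 830, the averaged genotype effect (1) 450 and 88, and the difference of effects (0) 130 and 7. Leaving out 1 library moved the first 3 to between 20 and 139, 7 and 277, and 0 and 133, the averaged stage effect to between 193 and 708, and the averaged genotype effect to between 0 and 62 (62 without the first Bcl6KO ST0 library). With the replicate number as a block the calls among proteasome genes were 0, 1, 0 and 0 in the 4 comparisons between groups and 2 in the averaged stage effect, and those over all genes were 53, 39, 1, 0 and 396. Deviations of same-numbered libraries correlated at -0.075 to 0.120, so the block has no support as a pairing. With 3 libraries a group and a common biological coefficient of variation of 0.835, small differences of single genes were not detectable.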
